A study of Bubalus bubalis with 9 samples.

Results

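The baseline described here is the granulosa cell transcriptome of healthy ovarian follicles of Chinese buffalo (Bubalus bubalis). It rests on the 3 samples labelled as healthy follicles of the 9 samples in the series. The other samples came from early atretic and late atretic follicles and are not compared here. All 3 healthy samples were granulosa cells from ovary, with no treatment named. Animal age, follicle size, cycle stage and the number of animals are not given in the labels, so the 3 samples may or may not come from separate animals.

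Granulosa cells surround the oocyte and line the fluid-filled antrum of the follicle. Under follicle-stimulating hormone they convert androgens from the neighbouring theca into estradiol with the enzyme aromatase, and they secrete inhibin, which restrains the pituitary's release of that hormone. They have no blood vessels of their own, being held behind a basement membrane, and gap junctions couple them to each other and to the oocyte. Near ovulation they gain the receptor for luteinizing hormone and turn into luteal cells.

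The values are the authors' mean of normalized read counts over the 3 healthy samples, 1 value per gene, for 20801 genes after 452 exactly repeated rows were dropped. The means summed to 14490733 normalized counts. A mean carries no spread between samples, so no SD or test is given, and every rank or share below describes these 3 libraries together. Read counts grow with transcript length as well as with the number of transcripts. Transcript lengths were not used here, so an order of genes below is an order of reads and not of molecules.

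Inhibin and activin subunits, a protease inhibitor and mitochondrial genes headed the list. COX1, the mitochondrial gene for subunit 1 of cytochrome c oxidase, ranked 1 with 482310 normalized counts, or 3.33% of all counts. INHA, the inhibin alpha subunit, followed with 321220, and INHBA, the beta A subunit shared by inhibin and activin, with 270038. SERPINE2, a secreted inhibitor of thrombin and plasminogen activators, ranked 4 with 245253 normalized counts. Those 4 genes together took 9.10% of all counts.

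Ranks 5 to 11 joined mitochondrial, matrix and general cell genes. CYTB, mitochondrial cytochrome b, had 120724 normalized counts and COX3, oxidase subunit 3, had 112474. VCAN, the matrix proteoglycan versican, had 107971, next to 105209 for the translation factor gene EEF1A1. LAPTM4B, a lysosomal membrane protein gene, had 77965, the actin gene ACTG1 had 73826, and MFGE8, a secreted glycoprotein that binds phosphatidylserine, had 60488. Only 1 gene of the first 12 had no name, LOC112587105 at 60322 normalized counts, since it had no match in the RefSeq table.

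Further down the 30 highest genes, structural and regulatory genes alternated. ACTB (55366 normalized counts) and VIM (51819), the intermediate filament vimentin, stood near EEF2 (48700). HIF1A, the oxygen-regulated transcription factor subunit, had 47733 normalized counts, and IVNS1ABP, an actin-associated kelch protein gene, had 48092. SERPINH1, a collagen chaperone of the endoplasmic reticulum, had 43371, ITGB5, an integrin beta subunit, 40488, and GREB1, an estrogen-responsive gene, 40227. JAK3, a cytokine-receptor kinase better known from lymphocytes, had 37606 normalized counts at rank 25. FST, the activin-binding protein follistatin, had 36036, INHBB, the beta B subunit, 35974, and GCLC, the catalytic subunit of the rate-limiting enzyme of glutathione synthesis, 35093. RPLP0 (47297), HSP90AB1 (35076) and GAPDH (33556) were also among the 30, as were the mitochondrial ATP6 (52769), COX2 (38952) and ND1 (38699). Here COX2 is the mitochondrial oxidase subunit 2 and not the prostaglandin synthase PTGS2.

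Some named genes are chromosomal neighbours. OBSL1, a cytoskeletal linker gene and the neighbour of INHA in the RefSeq annotation, ranked 31 with 33350 normalized counts, against which INHA had 9.63 times as many. INSL3, a peptide hormone of theca cells, adjoins JAK3 in that annotation and had 847 normalized counts. Whether reads of one neighbour were counted to the other was not tested, and the sources used here do not say if the counting used strand.

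**Figure D1:**
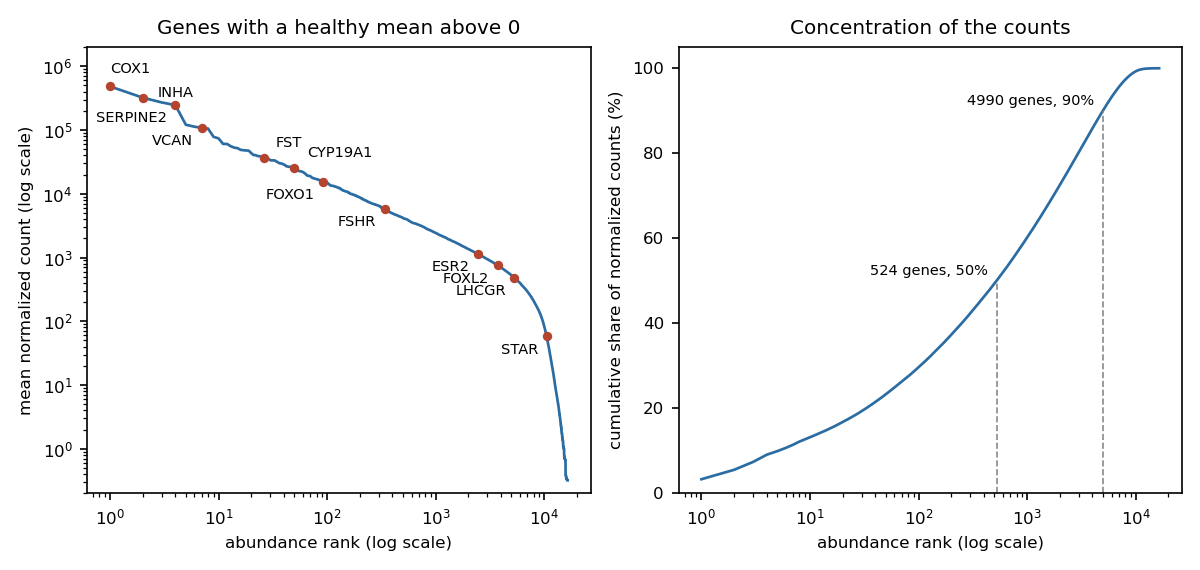
The left panel plots the authors' healthy mean normalized count of each gene above 0 against its abundance rank, both on log scales, with 12 genes marked in red, among them INHA at rank 2, FSHR at rank 339 and STAR at rank 10556. The right panel plots the cumulative share of all normalized counts against rank and marks the 524 genes that held 50% and the 4990 genes that held 90%.

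Counts were spread over many genes past this head. The 10 most abundant genes held 13.2% of all counts, the first 50 held 23.3%, the first 100 held 29.7% and the first 500 held 49.3%. It took 524 genes to reach 50% and 4990 to reach 90%. A mean of 1000 or more was met by 2807 genes and of 100 or more by 9720. The median of the 16468 genes above 0 was 191 normalized counts.

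By product class, secreted proteins took the greatest share of the classes listed. The 632 secreted products held 10.2% of counts, and INHA, INHBA and SERPINE2 made up 56.6% of that. Of the whole list, 324 members had a mean under 10, 308 had at least 10 and 77 reached 1000. Over all genes, 60.5% had a mean of at least 10 and 13.5% reached 1000. The 13 mitochondrially encoded proteins held 6.46%, of which COX1 alone was 51.5%. The 84 cytosolic ribosomal proteins held 5.36%. No single gene carried the ribosomal class, in which RPLP0 was highest, RPS2 had 28300 normalized counts and 78 members passed 1000.

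Smaller classes followed. The cytoskeleton list held 2.36%, chaperones 2.14%, elongation and associated factors 1.42% and glycolysis 0.784%. HSP90AB1, HSP90B1 (32052 normalized counts) and CALR (26955) led the chaperone list, which leaves out SERPINH1. Of the elongation and associated factors, EEF1A1 and EEF2 came before TPT1 (23242), an associated gene, and EEF1G (16659). The 60 nuclear genes of the respiratory chain and ATP synthase held 0.710%, led by ATP5F1A (15214 normalized counts), ATP5F1B (12317) and SDHA (6815). Nuclear genes of the cytochrome c oxidase complex outside this list were not analysed here. Sterol synthesis and cholesterol supply held 0.661% and steroid synthesis 0.516%. The 77 mitochondrial ribosomal proteins held 0.242%, with MRPS6 (1946), MRPL37 (1313) and MRPL10 (1286) highest.

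**Figure D2:**
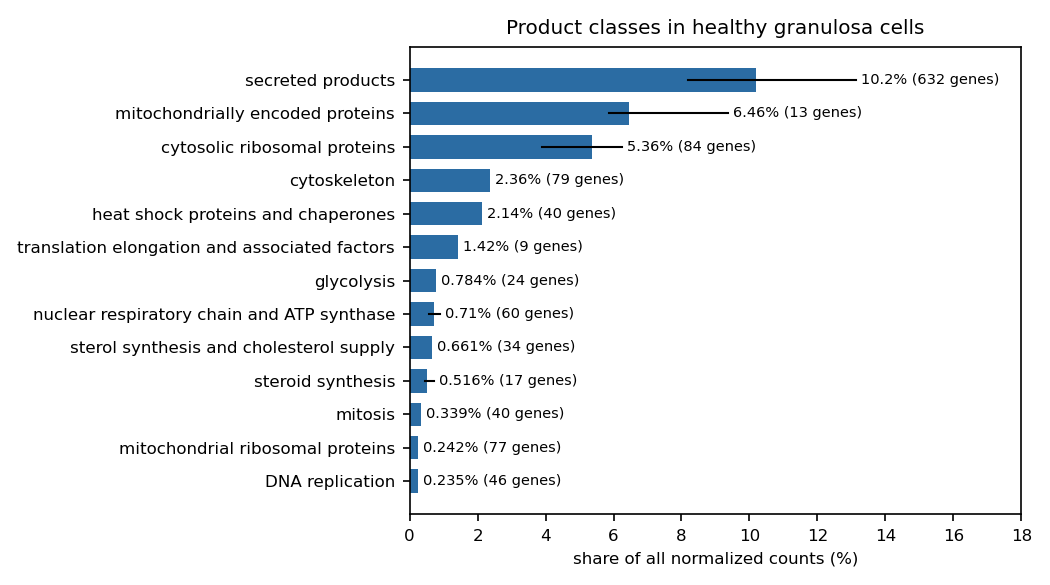
Horizontal bars give the share of all normalized counts (%) held by 13 product classes in the healthy mean, with the number of genes in each. Black lines, drawn for 5 classes, span the shares possible if library C, the healthy library described with the spread between libraries, were left out. Secreted products at 10.2% stand above mitochondrially encoded proteins at 6.46% and cytosolic ribosomal proteins at 5.36%, though these spans overlap in part.

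Inhibin genes led the hormones. INHA gave 51.2% of the counts of the inhibin and activin subunits and INHBA 43.1%. Whether INHA would still lead without library C, described with the spread between libraries, cannot be told. Without C, the possible means were 306905 to 387374 for INHA and 289708 to 364976 for INHBA. The beta A subunit gene had 7.51 times the counts of INHBB. The remaining pair of subunit genes, INHBC and INHBE, which are liver genes in other mammals, had a mean of 0. A mean of 0 in these 3 libraries allows a mean of up to 1.04 normalized counts (3 reads over the 3 libraries), a limit that covers counting error only. Follistatin, the antagonist of activin, was similarly one-sided: FST gave 97.5% of its family, with 767 normalized counts for FSTL1, 157 for FSTL3, 4.76 for FSTL4 and 0 for FSTL5. AMH, the anti-Mullerian hormone of small growing follicles, stood lower at 778 normalized counts, with 602 for its receptor gene AMHR2.

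Receptors for the gonadotropins were led by the follicle-stimulating hormone receptor. FSHR had 5720 normalized counts (rank 339), 11.9 times those of LHCGR, the luteinizing hormone receptor gene, at 481. TSHR, the thyrotropin receptor gene, had 0.67. The LHCGR mean came mostly from 1 of the 3 libraries, as described with the spread between libraries. Downstream of these receptors, the cyclases ADCY6 (1732 normalized counts) and ADCY9 (1135) gave 96.6% of the 10 adenylyl cyclase genes. PRKAR2B, a regulatory subunit of protein kinase A, had 9001 normalized counts, against 3016 for PRKAR1A and 536 for the catalytic subunit PRKACA. PDE7B (1170) and PDE8A (933) led the phosphodiesterases, which break down cyclic nucleotides, and PDE3A, an oocyte form in mammals, had 0.34.

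Of the steroid synthesis genes measured, those of the last steps to estradiol were highest. CYP19A1, aromatase, is listed as LOC102392019 and had 25077 normalized counts at rank 50, or 33.5% of the 17 genes of the list. HSD17B1, which reduces estrone to estradiol, had 19169 at rank 66 and gave 80.2% of the 17-beta dehydrogenase family. HSD17B4 (1668) and HSD17B10 (1276) came next in that family, and HSD17B2, which oxidises estradiol back, had 0.32. FDXR, the reductase that feeds electrons to mitochondrial steroid enzymes, had 11010 normalized counts, while its partner ferredoxin FDX1 had 354. STAR, which brings cholesterol to the inner mitochondrial membrane for the first step, had 57.9 at rank 10556, and HSD17B1 had 331 times its counts. CYP11A1, HSD3B1 and CYP17A1 were not analysed here, so nothing is said on the enzymes between cholesterol and androgen.

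Several genes of cholesterol supply had more counts than STAR. LRP8, a lipoprotein and reelin receptor gene, had 30254 normalized counts, LRP1 18091 and SCARB1, the high-density lipoprotein receptor gene, 8692. SCAP, the sensor of the sterol response, had 9337. In the synthesis branch HMGCS1, the gene of an early enzyme, had 5081. RELN, the secreted ligand of LRP8, had 29374 normalized counts at rank 39.

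In 59 of 87 families the highest member held at least 50% of the family's counts, and in 14 at least 90%. A family of 2 members meets the 50% mark by arithmetic, and families were not compared with other gene sets of like size. At least 1 member at 0 occurred in 35 of the 87 families. Of all genes 20.8% were at 0, a share per gene that cannot be set against a count of families. Nuclear receptors and transcription factors of the gonad included families with and without such a leader. NR5A2, or LRH-1, had 11684 normalized counts, 2.98 times those of NR5A1, or SF-1, at 3920. NR0B1, which represses them, had 40.8. The estrogen receptor gene ESR2 had 1134, followed by ESR1 at 600 and the progesterone receptor gene PGR at 362. GATA6 (4917 normalized counts) and GATA4 (1147) gave 99.9% of the GATA family, and none of the other 4 exceeded 5.73. FOXO1, a mediator of insulin and follicle-stimulating hormone signals, had 15389 at rank 92 and gave 93.1% of the FOXO genes.

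FOXL2, which maintains granulosa identity in the adult mouse ovary, ranked only 3727 by counts with 753 normalized counts. RUNX1 had 826 and RUNX2 589. The testis-side factors were low: SOX9 had 40.4 normalized counts, DMRT1 3.74, and SOX8, SOX10 and DMRT3 0. WNT4 had 0.99 and RSPO1, a WNT enhancer, had 0. WNT5A (38.0) was the highest of 19 WNT ligand genes, of which 15 were under 10 and 4 at 10 or more. Over all genes 60.5% were at 10 or more. Position genes were low throughout, with HOXD4 highest at 76.3 normalized counts and 19 of 39 HOX genes at 0, against 20.8% of all genes.

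**Figure D3:**
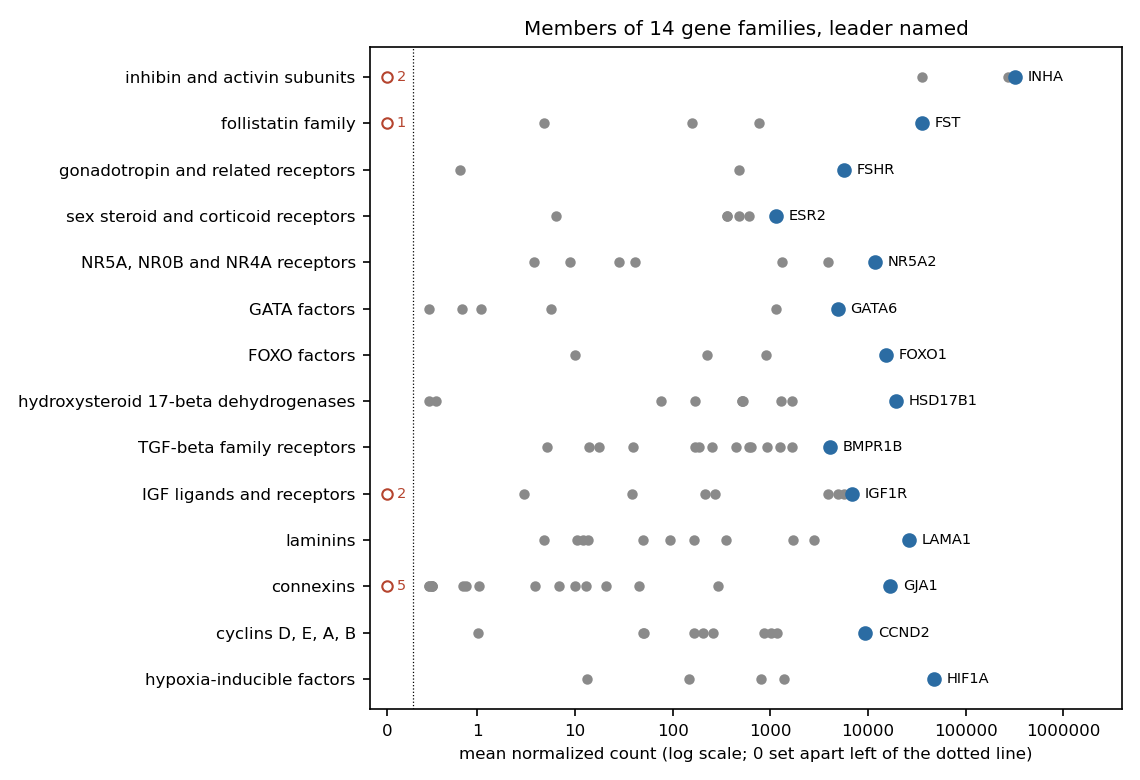
Each row is a gene family and each point a member's healthy mean normalized count on a log axis, with the leader named in blue and the other members in grey. Open red circles left of the dotted line mark members at 0, with their number. INHA, FST, FOXO1, GJA1 and HIF1A stand far right of most relatives, while IGF1R has close neighbours.

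In the transforming growth factor beta family, receptors and SMAD proteins outnumbered ligands in reads, apart from the inhibin subunits. BMPR1B, a receptor tied to ovulation rate in sheep, led the receptors with 4078 normalized counts, 4.45 times BMPR1A at 918. TGFBR2, the ligand-binding receptor for the TGF-beta proteins, had 17.6. SMAD2, which carries activin signals, had 6828 normalized counts and SMAD4 2644, whereas SMAD1 had 358 and SMAD9 26.9. Among 22 BMP and GDF genes, BMP1, a procollagen protease and not a ligand, gave 92.5%, and 11 members were at 0, as were 20.8% of all genes. Of the oocyte ligands, GDF9 had 3.03, above the median of 1.275 for these 22 genes, and BMP15 had 0. ID2, a target of BMP signals in many cells, had 5124 and gave 91.9% of the ID genes.

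The insulin-like growth factor system was present as receptors and binding proteins rather than ligands. IGF1R had 6823 normalized counts, the insulin receptor gene INSR 5647 and IRS1, their adaptor, 4895. IGF2 had 274, IGF1 had 2.98, and INS and IRS4 had 0. IGFBP7 (10098) and IGFBP2 (3932) gave 88.1% of the binding proteins, and PAPPA, the protease that cuts IGFBP4, had 1226.

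Ligands and receptors of other pathways differed in their counts. ADCYAP1, the PACAP peptide gene, had 4119 normalized counts, while its receptor genes VIPR2, ADCYAP1R1 and VIPR1 had 8.24, 0.38 and 0. NPR2, the receptor that keeps the oocyte arrested in mice when bound by C-type natriuretic peptide, had 2263, while NPPC, the gene of that peptide, had 0.34. NPPC is a product of mural granulosa cells in mice. EGFR had 4227, while its ovulatory ligand EREG had 17.7 and AREG fewer. NOTCH2 (8604) was present with the ligand DLL4 (3310), JAG1 had 312 and DLL3 0. KITLG, the ligand that granulosa cells offer the oocyte, had 996, and KIT, the oocyte's receptor, had 44.9. VEGFA, which draws vessels to the theca, had 3290 normalized counts. NMB, the neuropeptide neuromedin B, was the 11th of the secreted products with 20731.

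The proteoglycan VCAN led the matrix genes, and basement membrane genes led the collagens and laminins. COL4A1, COL4A4 and COL4A2 had 9043, 7409 and 7198 normalized counts and with COL4A3 (2944) gave 70.5% of 43 collagen genes. Fibrillar COL1A1 had 767 and COL3A1 273. LAMA1 had 26500 and gave 83.6% of the laminin counts, before LAMC1 (2783) and LAMB1 (1698). VCAN and HSPG2, which encodes the basement membrane proteoglycan perlecan and had 23329 normalized counts, gave 96.4% of the matrix proteoglycans. SERPINE2 gave 84.4% of 25 serpin genes, whereas PLAT and PLAU, the plasminogen activator genes, had 231 and 95.2. MMP14, a membrane-bound protease, had 3787 and led 20 matrix metalloproteases, of which 11 were under 10 and 9 at 10 or more. Over all genes 60.5% were at 10 or more.

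Adhesion and filament genes had 1 leader each. GJA1, connexin 43, had 17005 normalized counts, 97.7% of 21 connexin genes, of which 5 (GJB2, GJB6, GJD2, GJD4 and GJE1) were at 0, as were 20.8% of all genes. GJA4, the oocyte's connexin in mice, had 45.3. CDH2, N-cadherin, had 4829 and CDH1, E-cadherin, 50.9. ITGB5 gave 63.8% of 25 integrin genes, before ITGB1 at 11829, and ITGB6 was at 0. VIM gave 95.2% of the keratin and vimentin list; KRT8 had 1807 and KRT18 579, while KRT7 and KRT19 were at 0.

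Some energy and stress families were also led by few members. Others were not: the highest member held 30.5% of the peroxiredoxin, 35.6% of the glutathione peroxidase and 25.8% of the HSP70 and HSP90 counts. GAPDH (33556), ENO1 (15982), PKM (10394) and HK2 (10283) headed glycolysis, and the glucose transporters SLC2A3 (4268) and SLC2A1 (2408) gave 89.0% of theirs, with SLC2A2, the liver and beta cell form, at 0. LDHB had 6638 normalized counts, and LDHA was not analysed here. HIF1A exceeded EPAS1, at 806, and gave 95.3% of the hypoxia-inducible factor list. The lysosomal protease gene CTSD had 14361, more than CTSB at 5357. The glutathione transferases GSTA4 (2694) and GSTA1 (2661) were nearly level. Reads of close copies, as among ribosomal and actin genes, may have been split by the authors' counting, so such values are uncertain.

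Genes of cell division were also measured well above the floor. All 40 mitosis genes had at least 100 normalized counts, as did 46.7% of all genes. TOP2A had 5233, MKI67, a marker of dividing cells, 4636 and CENPF 3409, and the 40 genes held 0.339% of counts. The 46 replication genes held 0.235%, with MCM2 at 3230, MCM7 at 2613, DNMT1 at 2239 and PCNA at 1138. CCND2, the D-type cyclin that follicle-stimulating hormone induces in mouse granulosa cells, had 9396, while CCND3 had 203 and CCND1 1.01. Among 17 genes of the BCL2 family MCL1 (1136), BID (640) and BAX (535) were highest, and BCL2 had 18.2.

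Markers of granulosa and other cell types were then set beside the label. These lists were chosen with earlier results of these data known, so high granulosa markers do not test the label. All 17 granulosa markers were above 600 normalized counts, and 12 reached 1000, as did 13.5% of all genes. Together the 17 held 6.88% of counts, of which INHA, INHBA and SERPINE2 made up 83.9%. Of the 6 genes that mark the cells here, INHA, SERPINE2 and FST ranked 2, 4 and 26, HSD17B1 ranked 66, FSHR 339 and FOXL2 3727. In a bulk sample a low marker cannot tell fewer cells of a type from less RNA per cell.

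Markers of other cells ranged from near 0 to several with more counts than some granulosa markers. The 12 theca markers held 0.0412%, with ALPL (2951), PTCH1 (981) and INSL3 (847) highest and STAR, APOD (75.3) and GLI1 (17.5) low. The 15 stroma markers held 0.103%, of which FBLN1, which encodes a secreted matrix protein, was 75.2%, and LUM had 1158 and DCN 270. Among 12 smooth muscle and pericyte markers MCAM (6343), CSPG4 (5126) and MYH11 (4257) were high, whereas the pericyte marker RGS5 had 5.09 and CNN1 30.1.

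Blood and vessel markers were low with few exceptions. VWF, the von Willebrand factor gene, had 1772 normalized counts, 86.0% of the endothelial list, while PECAM1 had 14.5, CDH5 13.2 and CLDN5 4.12. The 18 macrophage markers summed to 671 normalized counts, with CD68 at 121, CD14 at 80.6 and TYROBP at 4.91. PTPRC, the pan-leukocyte CD45 gene, had 309, but CD3E had 16.4 and CD79B 0. LTF, lactoferrin, was 89.9% of the neutrophil list at 465. The 7 red cell markers summed to 16.9.

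Oocyte and surface epithelium markers were low, with a few exceptions. Of 18 oocyte genes 8 were at 0, among them BMP15, ZP4, FIGLA and NOBOX, against 20.8% of all genes, and ZP3 had 2.15. The highest were KIT at 44.9 and NLRP5 at 18.95. KRT7, KRT19, EPCAM and MSLN of the surface epithelium were at 0, although UPK1B had 387, CDH1 50.9, LGR5 21.4 and MUC1 16.5. Luteal markers were mixed, with SCARB1 at 8692 and IDH1 at 4459 but PTGFR, the receptor of luteolytic prostaglandin, at 18.5. Cells of these other types, and their part in the shares given above, were not counted or tested.

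**Figure D4:**
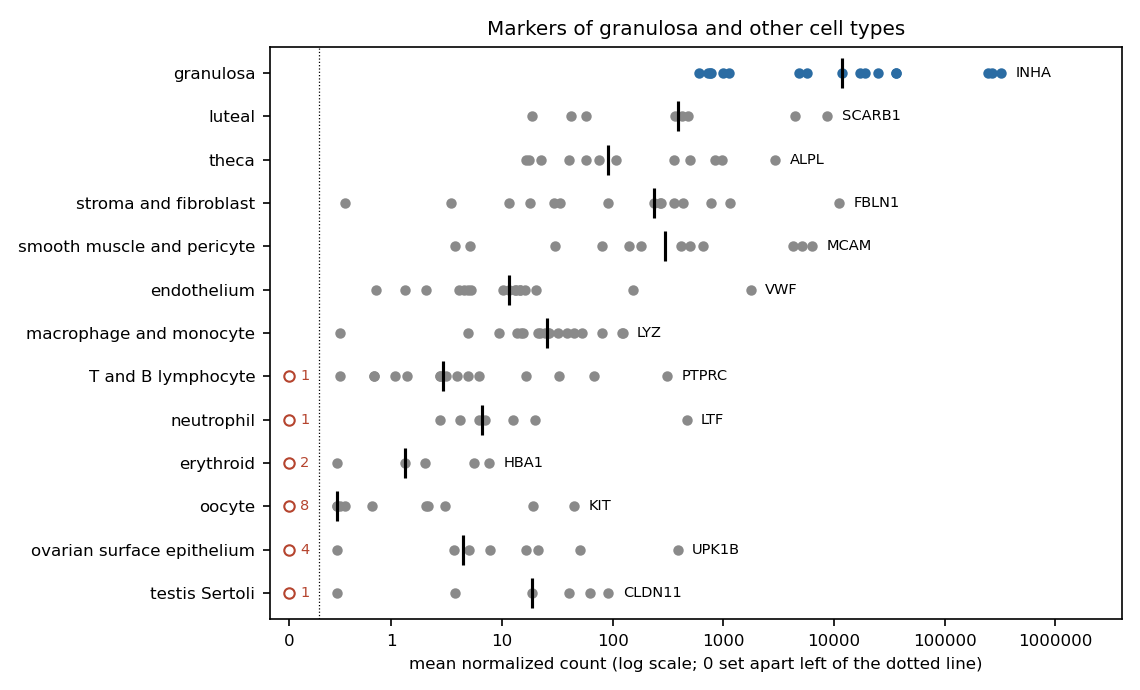
Each row is a marker list and each point a marker's healthy mean normalized count on a log axis, with the highest marker named, the median as a black tick, and open red circles with numbers for markers at 0. Granulosa markers, in blue, have a median of 11684 normalized counts, against 299 for smooth muscle and pericyte, 11.5 for endothelium and 0.32 for oocyte.

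The spread between the 3 healthy libraries cannot be measured, but the share of 1 library can be bounded. Low means are whole-read multiples of 3 steps, 1 per library, of 0.324, 0.344 and 0.379 normalized counts in the table used. The 3 libraries are called A, B and C here, since which numbered sample each is cannot be read from the means. C has the largest step, so the authors' scaling counts 1 read in C for more than in A or B, but its depth in reads is not known. The authors' other table scales the same libraries differently, and the ratio of a gene's 2 means then bounds the share that came from C. An even share would be 33.3%. Among 9720 genes of 100 or more normalized counts, for 8234 the range held that value, for 728 it lay above and for 758 below.

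For several leading genes the range held the even share, which does not show that the libraries were alike. C gave 27.9% to 43.0% of the SERPINE2 mean, 30.8% to 45.3% of VCAN, 19.6% to 36.3% of INHA and 26.97% to 42.3% of FSHR. Several of the genes described above were below even in C: 9.90% to 28.5% for INHBA, 6.76% to 25.96% for FST, 6.69% to 25.9% for INHBB, 4.51% to 24.1% for HSD17B1, 12.7% to 31.0% for FOXL2 and 15.03% to 32.6% for aromatase (LOC102392019). Others described above were above even in C. They included RELN at 49.5% to 60.4%, AMH at 41.5% to 54.2% and FOXO1 at 39.9% to 52.7%. LAMA1 was at 38.4% to 51.4% and VIM at 35.8% to 49.4%. As classes, mitochondrially encoded proteins were below even in C at 12.2% to 30.3%, and mitosis genes at 13.4% to 31.4%. Steroid synthesis genes lay just under it at 15.8% to 33.297%. Of the mitochondrially encoded genes, COX1 was at 12.6% to 30.6% and CYTB at 8.92% to 27.7%.

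A small group of genes came mainly from C. HSPA6, an inducible heat shock gene, came to 95.7% to 98.3% from C, which had 707 to 726 normalized counts, against a mean of 6.29 to 15.7 in the other libraries. LHCGR came to 77.9% to 83.6% from C, with 1124 to 1206 normalized counts there and a mean of 118 to 159 in A and B. DNAJB1, a heat shock co-chaperone gene, was at 67.2% to 74.7%. The early response factors FOS (58.9% to 68.1%) and EGR1 (53.1% to 63.3%) and the prostaglandin synthase gene PTGS2 (55.0% to 66.0%) were above 50% as well. In all, 76 genes had more than 50% of their mean from C, among them SPOCK2, MASP1, AVPR1A and IGFBP4.

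Another group had less than 20% of its mean from C. CKB, creatine kinase B, had at most 8.72% of its mean from C, SGK1 at most 9.64%, VGF 11.9%, POSTN 13.1%, TIMP1 15.8%, HK2 17.6%, EPAS1 17.7% and KRT8 18.05%. In all, 43 genes had an upper bound under 20%. The level of any of these genes in a single healthy sample may therefore stand far from the mean. Genes with an even share in C may also differ between A and B, whose shares cannot be told apart at these levels. What set C apart was not tested.

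**Figure D5:**
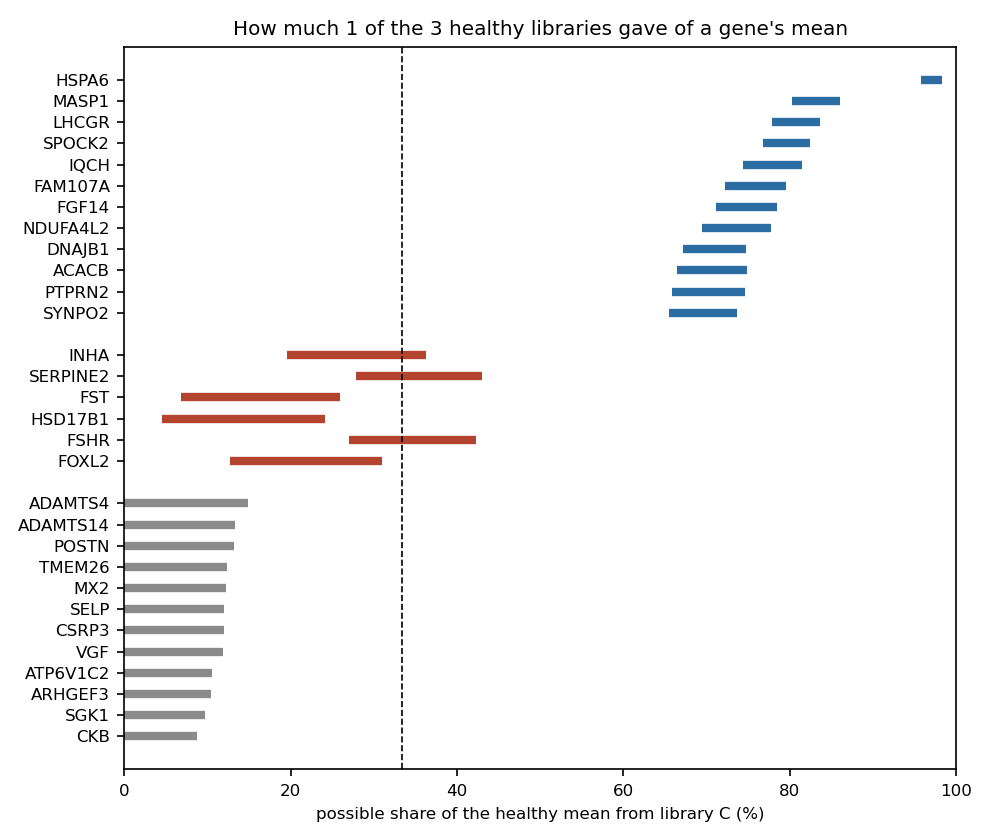
Each bar spans the lowest and highest possible share (%) of a gene's healthy mean that came from library C, with the even share as a dashed line. Blue bars are the 12 named genes with the highest lower bound, from HSPA6 at 95.7% down, red bars are the 6 marker genes, and grey bars are the 12 named genes with the lowest upper bound, of which CKB reaches 8.72%.

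At the bottom of the list, reads could be told apart by library. Of 3882 genes low enough to hold at most 30 reads, all had a whole-read solution within the rounding of 0.005, and 2440 had exactly 1. A single read over all 3 libraries gave the mean of 742 genes, with 255 in A, 267 in B and 220 in C. Examples were the oocyte genes ZP2 (1 read, in C) and DDX4 (1 read, in A). The B cell gene MS4A1 had 1 read in B. Means of this size lie under the 1.04 that no reads at all would allow. A further 4333 genes had a mean of 0.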

How the data were processed

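RNA of granulosa cells was extracted with Trizol and 3 µg per sample went into standard Illumina libraries, per the labels' protocols. The values are a signal, the authors' mean of normalized read counts per group, as 2 deposited tables give it for the healthy samples; the table with early atretic samples was used and the other served as an alternative. The submitters' processing notes list Bowtie 0.12.2 and, without saying what for, the mouse builds mm8 and mm9. Which counter, annotation and normalization were used was not given in the sources used here, and 0 columns of per-sample values were left out.

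Exact repeats were dropped, and IDs were matched to RefSeq names of NDDB_SH_1 for 19064 of 20801 genes; its positions served only to tell which genes are neighbours. Shares are percentages of summed means (pandas 2.3.3, numpy 2.4.6). The 3 library steps were found by linear programming (scipy 1.17.1) within rounding of 0.005 and tested on simulated data. Genes were searched up to 30 reads. The healthy libraries together held between 38233068 and 44713900 reads counted to genes; the depth of each is not known.

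Named were the 30 highest genes, the 3 highest members of each class, leaders and members at 0 of the families described, the 6 marker genes and defining markers of other cells; some that this rule takes are not reported here. Members and lists were chosen with earlier results of these data known. No test was made.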

Additional observations from a re-analysis of the deposited data

How the results depend on the processing

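No paired analysis was possible because the results come from no test and the means carry no replicate numbers. Alternatives that needed transcript lengths or protein sequences were not run. With COX1, the most abundant gene, left out, the mitochondrially encoded share was 3.24%, the secreted share 10.6%, the ribosomal share 5.55%, the nuclear respiratory share 0.734%, the steroid synthesis share 0.534% and the share of the 100 most abundant genes 27.3%. With repeated rows kept these were 6.35%, 10.1%, 5.31%, 0.697%, 0.507% and 29.1%. In the other deposited table the mitochondrially encoded share was 6.46% to 3 digits. Without genes under a mean of 10 the first 100 held 29.7%. Without members under a LOC number the ribosomal share was 5.35%. Further alternatives were chosen after seeing the data. With mitochondrial genes out of the total, the secreted, ribosomal and steroid synthesis shares were 10.9%, 5.73% and 0.552%; with EMID1, TLL2 and SRGN added the secreted share was 10.6%; without NR5A1 and NR5A2 the steroid synthesis share was 0.409%. Leaving out library C, which is the only healthy library whose share can be bounded, gave possible ranges of 8.19% to 13.1% for secreted, 5.86% to 9.36% for mitochondrially encoded, 3.898% to 6.25% for ribosomal, 0.563% to 0.902% for nuclear respiratory and 0.448% to 0.716% for steroid synthesis products, and 24.2% to 38.8% for the first 100 genes. These ranges are wide because C cannot be separated exactly. The highest member was the same in all 87 families in the other table. That table holds the same 3 libraries with steps 0.967 to 0.980 times as large, so little change was possible. Without library C the highest member was sure to stay the same in 65 families. It was not sure in those led by INHA, COL4A1, WNT5A, HOXD4, PDE7B, HSP90AB1 and GSTA4, among others. Genes above 0 numbered 16468, against 15212 at a mean of at least 1 and 12592 at 10. Depth limits the low genes: a mean of 0 allows up to 1.04.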

Other observations

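Some abundant genes had no name in the files or the RefSeq table. LOC112587105 (60322 normalized counts), LOC112587028 (17559) and LOC112580184 (14706) were among the 100 most abundant and had no match, so no role is given. LOC102400151 (19925) is protein-coding in the RefSeq table without a symbol. LOC102409533, also protein-coding, had 4042 normalized counts, of which 84.3% to 88.5% came from library C.

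Secreted genes outside the list used were also high. SRGN, the proteoglycan serglycin of secretory granules, had 24856 normalized counts, EMID1 17763 and TLL2, a tolloid-like protease gene, 12997. The retinol uptake receptor gene STRA6 ranked 38 with 29772.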
